A study of Mus musculus with 2 samples.

Results

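Messenger RNA of the vascular endothelial growth factor (VEGF) ligands and their receptors was followed in single cells of the mouse arcuate nucleus and median eminence. The group holds 9 genes, named by symbol: the 5 ligands Vegfa, Vegfb, Vegfc, Vegfd and Pgf, and the 4 receptors and co-receptors Flt1, Kdr, Nrp1 and Nrp2. All 9, out of 29809 genes listed in the count tables, had UMIs in both libraries. The tissue was measured by Drop-seq, which joins single cells to barcoded beads in droplets, reads the 3′ ends of transcripts and counts unique molecular identifiers (UMIs), each standing for 1 captured molecule.

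The Irx3/5dHet library came from CD-1 mice of genotype Irx3/5+/-, aged 7 to 8 weeks, with 5 mice pooled. The WT library came from wildtype CD-1 mice of the same age, with 7 mice pooled. Irx3 and Irx5 encode Iroquois transcription factors. Each genotype is 1 pool, cells cannot be traced to mice, and no value has a replicate check, so no p-value is given. All intervals are at 95%, are exact, and cover counting error only. Cell barcodes needed 300 genes or more, with mitochondrial UMIs no higher than 20%, which kept 1484 Irx3/5dHet and 2405 WT cells. These held 2862026 UMIs in Irx3/5dHet and 4282490 in WT, with medians of 1160.5 and 1274 UMIs per cell in Irx3/5dHet and WT. The libraries shared 3 cell barcodes. Irx3 had 15 UMIs in Irx3/5dHet against 31 in WT (fold 0.724, 0.363 to 1.38), and Irx5 had 6 against 16 (fold 0.561, 0.1798 to 1.51). No source used here states which part of either gene was deleted, so these counts do not check the genotype.

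VEGF ligands are secreted proteins that drive the growth, permeability and upkeep of blood vessels. VEGF-A binds FLT1 and KDR on endothelial cells, with KDR carrying most of the growth signal and FLT1 largely restraining it, while VEGF-B and placental growth factor bind FLT1. VEGF-C and VEGF-D act on FLT4, the receptor of lymphatic endothelium. Neuropilins are co-receptors for VEGF and also receptors for class 3 semaphorins, which guide axons. Capillaries of the median eminence are fenestrated, which lets blood-borne signals reach the arcuate nucleus, and tanycytes are the radial glia that contact both these capillaries and the third ventricle.

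Cells were grouped by clustering without the 9 genes and named from marker lists, so each name below is short for "like" that cell type. The endothelial class (13 Irx3/5dHet and 41 WT cells) held UMIs of all 13 of its markers in each library, with summed marker levels of 20129 CPM in Irx3/5dHet and 25157.6 CPM in WT, against 172 and 125 CPM in the other cells of Irx3/5dHet and WT. CPM are the UMIs of a gene per 1000000 UMIs of the class in that library. The pars tuberalis class, a thin sheet of pituitary cells below the median eminence (46 Irx3/5dHet and 96 WT cells), held 8 of 9 markers in Irx3/5dHet, where Six6 was at 0, and 9 of 9 in WT. Ventral tanycytes (49 Irx3/5dHet and 84 WT cells) held UMIs of all 12 tanycyte markers in each library, 9 of them above the limit for detection. They also held all 4 listed genes of the median eminence type. A pair of further clusters of the ventricle wall was s0 (67 Irx3/5dHet and 142 WT cells) and s1 (27 Irx3/5dHet and 136 WT cells). Together these also held UMIs of all 12 tanycyte markers in each library. Above the limit for detection were 7 of the 12 in s0 and 10 in s1. None of those markers was among their 10 leading genes, which held Mia of the ependymal list in both and Gja1 of the astrocyte list in s0. They are therefore called by number.

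The genes lie at separate loci in GRCm38 (GENCODE M21). Flt1 (ENSMUSG00000029648, chr5:147561604-147726011) and Kdr (ENSMUSG00000062960, chr5:75932827-75978458) are both on the minus strand. Vegfa (ENSMUSG00000023951) is on the minus strand of chr17:46016993-46032369, Vegfd (ENSMUSG00000031380) on the plus strand of chrX:164373378-164402650 and Pgf (ENSMUSG00000004791) on the minus strand of chr12:85166635-85177790. Vegfb (ENSMUSG00000024962) is on the minus strand of chr19:6982473-6987651 and Vegfc (ENSMUSG00000031520) on the plus strand of chr8:54077606-54187096. Nrp1 (ENSMUSG00000025810) lies on the plus strand of chr8:128358604-128503363 and Nrp2 (ENSMUSG00000025969) on the plus strand of chr1:62703285-62818695. No other annotated gene overlaps the last 500 bases of any of the 9 genes, the part nearest the 3′ ends that were read, and no source used here states whether counting used strand. The promoters of the receptors with the strongest endothelial pattern and of Vegfa, the ligand of ventral tanycytes, are shown on their own strand, from 250 bases before to 50 after the RefSeq start (GRCm38.p6). Capitals mark the letters GGAA or TTCC, the core read by ETS factors, which act in endothelial genes, in Flt1 and Kdr, and the GC box GGGCGG, or its reverse CCGCCC, in Vegfa.
Flt1, chr5:147725962-147726261: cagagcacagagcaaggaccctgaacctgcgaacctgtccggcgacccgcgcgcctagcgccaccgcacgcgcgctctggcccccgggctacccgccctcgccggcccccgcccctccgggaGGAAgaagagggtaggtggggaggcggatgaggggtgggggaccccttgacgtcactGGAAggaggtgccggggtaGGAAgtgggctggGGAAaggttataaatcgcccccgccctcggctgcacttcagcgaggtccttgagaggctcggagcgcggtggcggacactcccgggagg
Kdr, chr5:75978406-75978705: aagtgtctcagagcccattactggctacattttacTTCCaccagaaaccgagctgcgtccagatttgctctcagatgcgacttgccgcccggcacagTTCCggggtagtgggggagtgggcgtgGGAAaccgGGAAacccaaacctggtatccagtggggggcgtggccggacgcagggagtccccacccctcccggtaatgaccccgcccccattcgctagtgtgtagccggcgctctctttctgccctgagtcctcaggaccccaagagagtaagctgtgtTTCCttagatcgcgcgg
Vegfa, chr17:46032328-46032627: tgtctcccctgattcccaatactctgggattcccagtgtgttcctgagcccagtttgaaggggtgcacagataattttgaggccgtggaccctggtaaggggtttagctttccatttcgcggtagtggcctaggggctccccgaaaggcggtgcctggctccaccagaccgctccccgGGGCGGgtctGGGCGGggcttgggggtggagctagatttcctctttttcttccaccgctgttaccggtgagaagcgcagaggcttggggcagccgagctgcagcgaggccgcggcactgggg
Flt1 held 4 ETS cores and Kdr 5 on both strands together, the Vegfa window held 6, and 96.0% of 32851 RefSeq promoter windows of this length hold at least 1. The GC box occurred at 2 places in the Vegfa window and in 35.7% of all windows. The core ACGTG or CACGT, which hypoxia-inducible factors read, was not in this Vegfa window, was at 1 place in the window of a second Vegfa start and is in 19.6% of all windows.

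Of the ligands, Vegfa, the main growth factor of vessels, had its best-measured high level in ventral tanycytes. It had 25 UMIs in Irx3/5dHet and 61 in WT ventral tanycytes, or 289 CPM (187 to 426) in Irx3/5dHet and 294 CPM (225 to 378) in WT. These were 8.72-fold (5.37 to 13.7) and 9.15-fold (6.64 to 12.5) above all other cells of Irx3/5dHet and of WT. The difference between the libraries was within counting error (fold 0.982, 0.590 to 1.59). Of 5752 genes measurable in ventral tanycytes, 13.1% were at least 2-fold above the other cells in both libraries, and of 2 VEGF genes measurable there Vegfa was and Pgf was not. A UMI of Vegfa was found in 36.7% of Irx3/5dHet and 48.8% of WT ventral tanycytes, whose median depth was 1583 UMIs in Irx3/5dHet and 2422 in WT. With every cell thinned to 500 UMIs, which left out 1 Irx3/5dHet and 6 WT cells, the shares were 18.8% (8.95 to 32.6) and 12.8% (6.32 to 22.3) in Irx3/5dHet and WT. After thinning none of 114 Irx3/5dHet and 246 WT oligodendrocytes, taken as background, held one (exact upper limits 3.18% in Irx3/5dHet and 1.49% in WT), while 0.8% of Irx3/5dHet and 1.14% of WT oligodendrocytes did before thinning.

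Vegfa was not limited to tanycytes. Fibroblasts, the connective tissue cells of the meninges and vessel sheath, had 16 UMIs in Irx3/5dHet and 18 in WT, or 126 CPM (72.2 to 205) in Irx3/5dHet and 97.1 CPM (57.5 to 153) in WT. Astrocytes gave 324 CPM (66.9 to 948) in Irx3/5dHet and 240 CPM (77.9 to 559.6) in WT, from 3 and 5 UMIs in Irx3/5dHet and WT, so their place against ventral tanycytes cannot be set. Precursors of oligodendrocytes (OPC) had 57.7 CPM (15.7 to 148) in Irx3/5dHet and 47.3 CPM (25.9 to 79.4) in WT, intervals that include the levels of all cells together, 40.9 CPM in Irx3/5dHet and 44.8 CPM in WT. Pars tuberalis cells had 27.5 CPM (3.33 to 99.2) in Irx3/5dHet and 42.3 CPM (17.0 to 87.1) in WT, from 2 UMIs in Irx3/5dHet and 7 in WT. Neurons had a low level, 25.2 CPM (18.6 to 33.4) in Irx3/5dHet and 27.1 CPM (20.3 to 35.6) in WT, but as the class with the most RNA they held 41.03% of the Vegfa UMIs in Irx3/5dHet and 27.1% in WT. Ventral tanycytes held 21.4% in Irx3/5dHet and 31.8% in WT. No Vegfa UMI was seen in endothelial cells or microglia of either library, where 3 counts would be 261 CPM in Irx3/5dHet and 80.8 CPM in WT endothelial cells. Epithelial cells had 8 Vegfa UMIs in Irx3/5dHet, 3 of them in 1 cell, and 1 in WT.

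**Figure D1:**
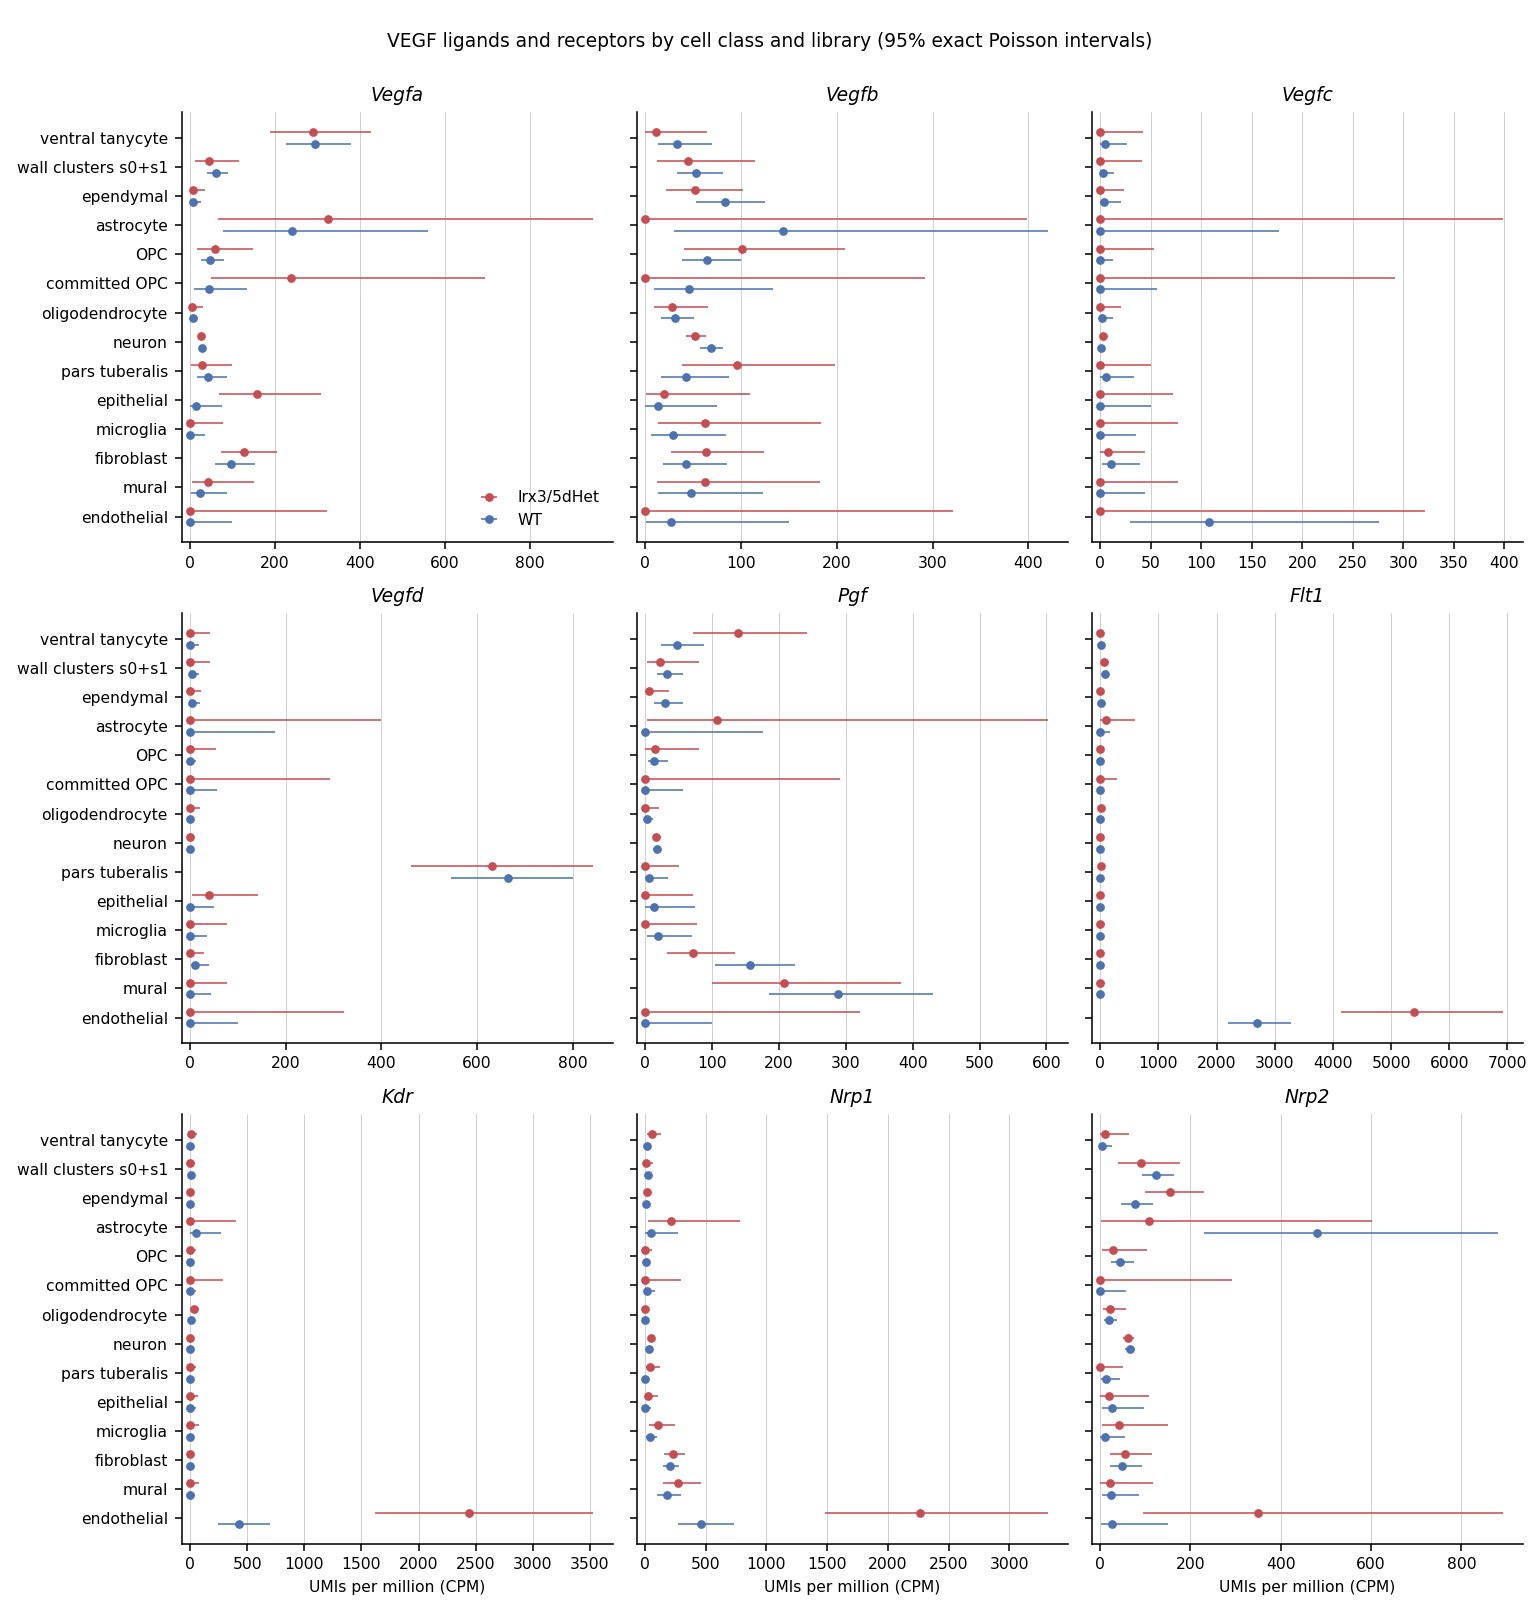
Levels of the 9 VEGF genes in CPM (horizontal axis, its scale set for each gene) by cell class (vertical axis), with Irx3/5dHet in red above WT in blue; points are summed UMIs of a class in 1 library and bars are exact Poisson intervals. Vegfd stands out in pars tuberalis cells, Flt1 and Kdr in endothelial cells and Vegfa in ventral tanycytes, while the astrocyte bars are wide.

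Vegfd, a ligand known from lymphatic growth, was almost a pars tuberalis gene in this tissue. Pars tuberalis cells held 46 of 49 Vegfd UMIs in Irx3/5dHet and 110 of 116 in WT, or 93.9% and 94.8% in Irx3/5dHet and WT. Their level was 632 CPM (462 to 842) in Irx3/5dHet and 665 CPM (546 to 801) in WT, with no other class above 39.2 CPM in Irx3/5dHet or 10.8 CPM in WT. This was 587-fold (189 to 2952) above the rest of the Irx3/5dHet library and 456-fold (203 to 1269) above the rest of the WT library. Between the libraries the pars tuberalis level differed by less than its counting error (fold 0.950, 0.659 to 1.35). Of 4682 genes measurable in this class 13.6% were at least 2-fold above other cells in both libraries, and of the 2 VEGF genes measurable there Vegfd was and Vegfb was not.

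Vegfd was uneven among pars tuberalis cells. In Irx3/5dHet, 22 cells had no UMI, 10 had 1 and 14 had 2 or more, with at most 6, while in WT 54 had none, 21 had 1 and 21 had 2 or more. A WT cell with 25 UMIs held 22.7% of the count; without the highest cell of each library the levels were 557 CPM (398 to 759) in Irx3/5dHet and 521 CPM (417 to 645) in WT. All Vegfd UMIs of the class were in cells with a UMI of Cga, the shared subunit of pituitary glycoprotein hormones, which were 44 of 46 cells in Irx3/5dHet and 90 of 96 in WT. With a UMI of Tshb, the thyrotropin subunit, the level was 759.8 CPM in Irx3/5dHet and 799.8 CPM in WT, against 185 CPM and 387 CPM in cells without one in Irx3/5dHet and WT. Flt4, the receptor for this ligand, had 1 UMI in Irx3/5dHet and 2 in WT over all cells, so its cells could not be placed at this depth.

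Pgf, which encodes placental growth factor and acts through Flt1, had its highest level in mural cells, the pericytes and smooth muscle that wrap vessels. These had 10 UMIs in Irx3/5dHet and 24 in WT, or 208 CPM (99.8 to 383) in Irx3/5dHet and 289 CPM (185 to 429.9) in WT. That was 10.1-fold (4.599 to 19.9) above other Irx3/5dHet cells and 11.9-fold (7.29 to 18.7) above other WT cells. The mural interval overlapped that of fibroblasts in both libraries and that of ventral tanycytes in Irx3/5dHet. Among genes measurable in mural cells 23.8% passed 2-fold in both libraries, and Pgf and Nrp1 were the 2 VEGF genes tested and passed. In so small a class the limit of 10 UMIs favours genes that are high there, so this count carries little weight. Fibroblasts had less in Irx3/5dHet, with 9 UMIs against 29 in WT, or 71.1 CPM (32.5 to 135) in Irx3/5dHet and 156 CPM (105 to 225) in WT (fold 0.454, 0.189 to 0.986). Ventral tanycytes had more in Irx3/5dHet, with 12 UMIs against 10 in WT, or 139 CPM (71.7 to 242) in Irx3/5dHet and 48.2 CPM (23.1 to 88.7) in WT (fold 2.87, 1.14 to 7.43). Here 5 of the 12 Irx3/5dHet UMIs came from 1 cell, and without the highest cell of each library the values were 84.5 CPM (34.0 to 174) in Irx3/5dHet and 39.5 CPM (17.1 to 77.8) in WT, whose intervals overlap. At least 2-fold lower in Irx3/5dHet were 13.1% of all genes in fibroblasts, and at least 2-fold higher 11.3% in ventral tanycytes. Of the ventral tanycytes with Pgf, 1 of 6 in Irx3/5dHet and 5 of 8 in WT also held Vegfa, against 18 of 49 Irx3/5dHet and 41 of 84 WT ventral tanycytes in all. Neurons had 32 Pgf UMIs in Irx3/5dHet and 33 in WT at 16.8 and 17.2 CPM in Irx3/5dHet and WT. Of these, 31 and 32 lay in neuron cluster 0 of Irx3/5dHet and WT, led by Cartpt, Npy, Gap43 and Oxt. Cluster 0 also held 1560640 of 1905013 neuron UMIs in Irx3/5dHet and 1331901 of 1917029 in WT. Its Pgf level was 19.9 CPM in Irx3/5dHet and 24.0 CPM in WT. In the other neuron clusters 3 counts would be 21.1 to 79.4 CPM in Irx3/5dHet and 11.4 to 29.3 CPM in WT. Most of them could therefore not show a like level.

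Vegfb, a Flt1 ligand tied to fat handling and cell survival more than to vessel growth, was spread over nearly every class. It had 147 UMIs in Irx3/5dHet and 245 in WT, and 68.0% of these in Irx3/5dHet and 53.5% in WT were in neurons. Neurons had 52.5 CPM (42.7 to 63.9) in Irx3/5dHet and 68.3 CPM (57.1 to 81.1) in WT (fold 0.768, 0.586 to 1.004). Ependymal cells, the ciliated lining of the ventricle, had 51.6 CPM (22.3 to 102) in Irx3/5dHet and 83.4 CPM (52.9 to 125) in WT. In each library the intervals of the highest class and of all 13 others overlapped. That class held only 7 Vegfb UMIs in Irx3/5dHet (OPC) and 3 in WT (astrocytes), so the overlap does not show even levels. Neurons were 1.07-fold (0.749 to 1.55) above other Irx3/5dHet cells and 1.42-fold (1.09 to 1.84) above other WT cells. Oligodendrocytes had 28.3 CPM in Irx3/5dHet and 30.7 CPM in WT. Vegfc, the lymphatic growth factor, had 6 UMIs in Irx3/5dHet, 5 of them in neurons, and 13 in WT. Of the WT UMIs, 4 lay in 2 endothelial cells (108 CPM, 29.4 to 276), and both were among the 13 WT endothelial cells with a UMI of an artery gene (Bmx, Gja4, Gkn3, Sema3g or Efnb2). The Irx3/5dHet endothelial cells held none, where 3 counts would be 261 CPM.

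On the receiving side, Flt1 and Kdr were concentrated in endothelial cells of both libraries. Flt1 had 62 UMIs in 10 of 13 Irx3/5dHet endothelial cells and 100 in 32 of 41 WT endothelial cells, or 5403 CPM (4142 to 6926) in Irx3/5dHet and 2694 CPM (2192 to 3276) in WT. Kdr had 28 UMIs in 8 Irx3/5dHet cells and 16 in 9 WT cells, or 2439.9 CPM (1621 to 3526) in Irx3/5dHet and 431 CPM (246 to 699.9) in WT. Endothelial cells were under 2% of either library but held 84.9% of Irx3/5dHet and 67.6% of WT Flt1 UMIs, and 75.7% of Irx3/5dHet and 61.5% of WT Kdr UMIs. Against other cells Flt1 was 1400-fold (731 to 2949) higher in Irx3/5dHet and 238-fold (167 to 343) in WT, and Kdr 773-fold (355 to 1862) in Irx3/5dHet and 183-fold (78.1 to 451) in WT. Flt1, Kdr and Nrp1 were the 3 VEGF genes measurable in this class and all 3 passed 2-fold over other cells in both libraries, as 35.9% of the 1027 genes measurable there did. In so small a class, genes this low in other cells reach 10 UMIs only if they are high here. Their passing was therefore near fixed in advance, and 35.9% is not a like comparison.

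Irx3/5dHet endothelial cells gave higher levels of all 3 receptors than WT endothelial cells. The fold was 2.01 (1.44 to 2.78) for Flt1, 5.66 (2.96 to 11.2) for Kdr and 4.95 (2.58 to 9.72) for Nrp1, a co-receptor of KDR. Nrp1 had 26 UMIs in Irx3/5dHet and 17 in WT, or 2266 CPM (1480.0 to 3319.6) in Irx3/5dHet and 458 CPM (267 to 733) in WT. At least 2-fold higher in Irx3/5dHet endothelial cells were 15.7% of measurable genes and the median gene had a log2 ratio of 0.03, so 3 of 3 stands beside a noisy background from 13 cells. A single Irx3/5dHet cell of 3616 UMIs held 23 of the 62 Flt1 UMIs, 11 of the 28 of Kdr and 14 of the 26 of Nrp1. For each gene in turn, the cell with most UMIs of that gene was left out of each library, a different WT cell for each gene. The fold was then 1.93 (1.29 to 2.85) for Flt1, 7.02 (3.10 to 16.6) for Kdr and 3.74 (1.56 to 8.90) for Nrp1. Median depth was near equal, 715 UMIs in Irx3/5dHet and 669 in WT. Thinned to 500 UMIs, 5 of 10 Irx3/5dHet endothelial cells had Kdr (50%, 18.7 to 81.3) and 7 of 31 WT ones did (22.6%, 9.59 to 41.1), against 61.5% of Irx3/5dHet and 22.0% of WT cells before thinning, while 7 of 10 Irx3/5dHet and 24 of 31 WT cells had Flt1. The share of oligodendrocytes with a Kdr UMI after thinning was 2.63% in Irx3/5dHet and 0.407% in WT. For Kdr this share is not a clean background, since oligodendrocytes had the highest Irx3/5dHet level outside endothelial cells (33.9 CPM).

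From cell to cell the receptors overlapped in part. In Irx3/5dHet, 6 endothelial cells held both Flt1 and Kdr, 4 Flt1 alone, 2 Kdr alone and 1 neither. In WT 7 held both, 25 Flt1 alone, 2 Kdr alone and 7 neither. Cells with a UMI of Plvap, the diaphragm protein of fenestrae, were 4 of 13 in Irx3/5dHet and 7 of 41 in WT. Kdr was at 3383 CPM (2037 to 5283) with Plvap and 1536 CPM (702 to 2916) without it in Irx3/5dHet, and at 1453 CPM (725 to 2599.7) with Plvap and 169 CPM (54.9 to 395) without it in WT. Within WT this was 8.59-fold (2.75 to 31.5) higher with Plvap, and Nrp1 was 7.16-fold (2.43 to 23.6) higher, at 1453 CPM with Plvap against 203 CPM without. In Irx3/5dHet the same ratios were 2.20 (0.950 to 5.53) for Kdr and 1.97 (0.831 to 5.02) for Nrp1, the second at 0.977 without the cell of most Nrp1 UMIs. Flt1 was 2.19-fold (1.26 to 3.94) higher with Plvap in Irx3/5dHet. In WT it was at 2245 CPM (1308 to 3595) with Plvap and 2808 CPM (2237 to 3481) without it, a ratio of 0.7996 (0.445 to 1.36) that was 0.379 (0.120 to 0.920) without 1 of the 2 WT cells that tie for most Flt1 UMIs, the one with Plvap. Median depth was 790.5 UMIs with and 675 without Plvap in Irx3/5dHet, and 726 with and 617.5 without in WT. Plvap itself was at 1481 CPM in Irx3/5dHet and 593 CPM in WT endothelial cells (fold 2.50, 1.25 to 4.93). Between the libraries, Kdr was 2.33-fold (1.05 to 5.42) higher in Irx3/5dHet among cells with Plvap and 9.08-fold (2.73 to 34.5) among cells without it, the second from 9 UMIs in Irx3/5dHet and 5 in WT. Nrp1 was at 2.08-fold (0.921 to 4.92) with Plvap and 7.57-fold (2.40 to 25.8) without it. Flt1 was at 3.33-fold (1.86 to 6.24) with Plvap and 1.22-fold (0.706 to 1.999) without it. Among Irx3/5dHet cells with Plvap, the cell of 3616 UMIs held 11 of 19 Kdr, 14 of 17 Nrp1 and 23 of 42 Flt1 UMIs. The folds between libraries among cells with Plvap were not computed without this cell, so they rest largely on it.

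**Figure D2:**
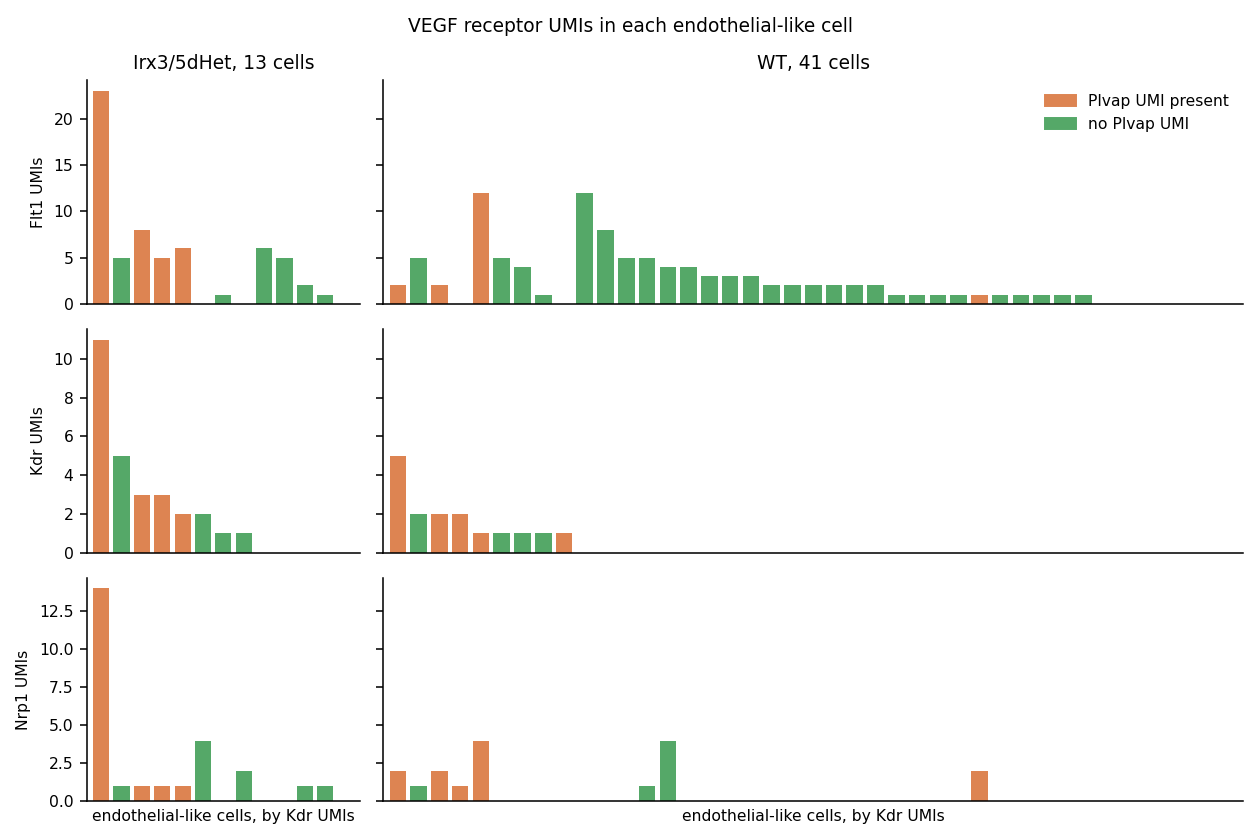
UMIs of Flt1, Kdr and Nrp1 (vertical axes) in each endothelial-like cell, 13 from Irx3/5dHet on the left and 41 from WT on the right, ordered by Kdr UMIs; orange bars are cells with a Plvap UMI and green bars cells without one. Kdr is read in 8 of 13 Irx3/5dHet and 9 of 41 WT cells, and 1 Irx3/5dHet cell carries the highest bar of all 3 genes.

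Some listed genes of vessel type also differed between the libraries in this class. Of the 7 listed genes of barrier vessels 2 were at least 2-fold lower in Irx3/5dHet endothelial cells, as were 18.7% of genes there, and 6 were below WT, with a median log2 ratio of -0.73 against 0.03 for all genes measured there. Slco1a4, an anion transporter, had 436 CPM in Irx3/5dHet and 1077 CPM in WT (fold 0.404, 0.125 to 1.02), and Slc2a1, the glucose transporter, had 174 CPM in Irx3/5dHet and 1131 CPM in WT (fold 0.154, 0.0181 to 0.592). The Irx3/5dHet value of Slc2a1 is below the 261 CPM that 3 counts would give in that class. Esm1, a product of VEGF-stimulated endothelium that also marks fenestrated vessels, had 1046 CPM in Irx3/5dHet and 189 CPM in WT (fold 5.55, 2.01 to 16.6). Gkn3, an artery gene, had 261 CPM in Irx3/5dHet, the level of 3 counts, and 1077 CPM in WT (fold 0.243, 0.0480 to 0.762). Bmx had no UMI in Irx3/5dHet against 10 in WT. All 4 measurable hypoxia targets, Slc2a1, Ldha, Ankrd37 and Ndrg1, were at least 2-fold lower in Irx3/5dHet endothelial cells, beside the 18.7% given above. Slc2a1 is also on the barrier list, so the counts for these lists are not separate. None of the 4 listed vein genes was measurable in this class. The part of vessel type in the receptor levels was not tested. Of 5 measurable genes on the list of other vessel growth genes all 5 were at least 2-fold above other cells in both libraries, against 35.9% of all genes there, among them Tek, the angiopoietin receptor, and Egfl7, a secreted endothelial factor. For those low in other cells, passing was near fixed in advance, as for Flt1 and Kdr. Of those 5, Esm1 and Col4a1, a basement membrane collagen at 1394 CPM in Irx3/5dHet and 269 CPM in WT, were at least 2-fold higher in Irx3/5dHet, against 15.7% of all genes there. Of 4 measurable receptor partners and relay genes, Nos3, Rac1 and Hspb1 were at least 2-fold above other cells in both libraries (3 of 4, beside 35.9%), and none was at least 2-fold higher in Irx3/5dHet than in WT while Nck1 was at least 2-fold lower.

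Flt1 was also read outside vessels, in wall clusters s0 and s1. The pair held 6 Flt1 UMIs in 6 of 94 Irx3/5dHet cells and 33 in 25 of 278 WT cells, or 67.1 CPM (24.6 to 146) in Irx3/5dHet and 83.5 CPM (57.5 to 117) in WT. This was 22.3% of all WT Flt1 UMIs, and 2.78-fold (0.984 to 6.37) above other Irx3/5dHet cells and 2.82-fold (1.86 to 4.19) above other WT cells. Flt1 alone of 5 measurable VEGF genes passed 2-fold there in both libraries, as 10.9% of all genes did. Most came from s0, with 5 UMIs or 83.2 CPM (27.0 to 194) in Irx3/5dHet and 26 UMIs or 159 CPM (104 to 233) in WT, against 1 and 7 UMIs in s1 of Irx3/5dHet and WT. Of the cells with Flt1, none of 6 in Irx3/5dHet and 2 of 25 in WT held a UMI of any of the 13 endothelial markers, against 1 of 88 and 22 of 253 wall cells without Flt1 in Irx3/5dHet and WT. Over both libraries these 31 cells had no UMI of Cldn5, Ly6c1 or Cdh5, the junction and surface markers of endothelium. They had tanycyte genes at levels near those of wall cells without Flt1, such as Rax, a tanycyte transcription factor, at 295 CPM with Flt1 and 318 CPM without, and Crym, a thyroid hormone binding protein, at 540.3 CPM with Flt1 and 482 CPM without. Of the ependymal list, Foxj1 was at 123 CPM with Flt1 and 146 CPM without, and Ccdc153 at 0 and 18.0 CPM. Mean log2 marker levels over the median cluster were 1.95 (ependymal) and 1.81 (tanycyte) in s0, and 1.86 and 2.25 in s1. The type of these cells is thus not set. After thinning to 500 UMIs the share with Flt1 was 1.30% (0.0329 to 7.02) in Irx3/5dHet and 3.64% (1.68 to 6.80) in WT, against 0.877% and 0.813% of oligodendrocytes in Irx3/5dHet and WT, so the Irx3/5dHet share was not above background at this depth. When each library was clustered alone, WT had 126 wall cells and 342 ependymal ones, and Flt1 was then below the rest in these WT wall cells (log2 -0.25).

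**Figure D3:**
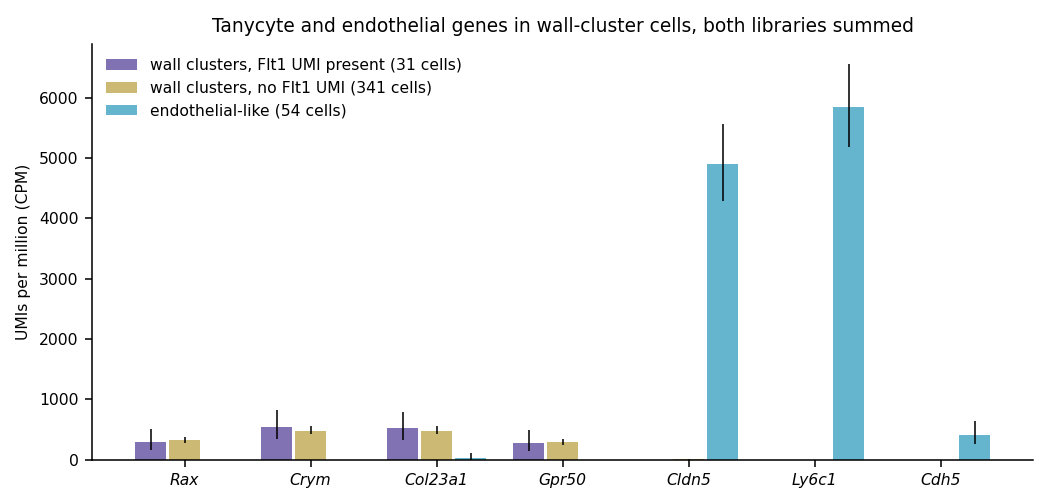
Levels in CPM (vertical axis) of 4 tanycyte genes and 3 endothelial genes (horizontal axis) in cells of wall clusters s0 and s1 with a Flt1 UMI, in those without one and in endothelial-like cells, both libraries summed; bars are summed UMIs and lines exact Poisson intervals. Cells with and without Flt1 have like levels of Rax, Crym, Col23a1 and Gpr50, and Cldn5, Ly6c1 and Cdh5 are near 0 outside the endothelial class.

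Kdr outside vessels was scarce. Oligodendrocytes held 6 UMIs in Irx3/5dHet and 5 in WT, or 33.9 CPM (12.5 to 73.8) in Irx3/5dHet and 10.96 CPM (3.56 to 25.6) in WT, in 5 Irx3/5dHet and 4 WT cells, of which 1 WT cell held an endothelial marker UMI. This was 2.94-fold (1.002 to 7.15) above other Irx3/5dHet cells and 1.997-fold (0.588 to 5.44) above other WT cells. Kdr thus reached 2-fold in both libraries only with 0.5 added to each sum, as done for all genes, of which 13.3% passed there, and the WT ratio was below 1 as a mean over cells (log2 -0.78). Ventral tanycytes, the cells with most Vegfa per UMI among well-sampled classes, held 1 Kdr UMI in Irx3/5dHet and none in WT, and no Flt1 UMI in Irx3/5dHet and 2 in 1 WT cell. Neurons held 2 Kdr UMIs in Irx3/5dHet and 1 in WT, and 2 Flt1 UMIs in Irx3/5dHet and 5 in WT.

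The co-receptors reached further than Flt1 and Kdr. Nrp1 was at 229 CPM (153 to 329) in Irx3/5dHet and 205 CPM (145 to 281) in WT fibroblasts, and at 270.4 CPM (144 to 462) in Irx3/5dHet and 181 CPM (101 to 298) in WT mural cells. In mural cells, 4 of 6 Irx3/5dHet and 4 of 9 WT cells with Nrp1 held a UMI of an endothelial marker, against 17 of 52 Irx3/5dHet and 18 of 65 WT cells without Nrp1, and 2 of 13 Irx3/5dHet and 8 of 15 WT Nrp1 UMIs lay in cells with no such marker. In fibroblasts 10 of 21 Irx3/5dHet and 14 of 32 WT cells with Nrp1 held one, against 51 of 101 Irx3/5dHet and 59 of 124 WT cells without it. The part of these marker UMIs in the Nrp1 levels was not tested. Fibroblasts were 4.15-fold (2.69 to 6.203) above other Irx3/5dHet cells and 7.24-fold (4.88 to 10.5) above other WT cells. Vegfa, Pgf and Nrp1 were the 3 of 5 measurable VEGF genes that passed 2-fold in fibroblasts of both libraries, as 17.1% of genes did. The largest number of Nrp1 UMIs was in neurons, with 93 in Irx3/5dHet and 63 in WT, or 48.8 CPM (39.4 to 59.8) in Irx3/5dHet and 32.9 CPM (25.3 to 42.1) in WT (fold 1.49, 1.07 to 2.08). The point value was higher in Irx3/5dHet in 4 of 5 neuron clusters. Cluster 0 had 41.01 CPM (31.6 to 52.4) in Irx3/5dHet and 21.8 CPM (14.6 to 31.3) in WT, and cluster 3, led by Avp, had 91.3 CPM (48.6 to 156) from 13 UMIs in Irx3/5dHet and 8.97 CPM (0.227 to 49.96) from 1 UMI in WT. Cluster 8 had 36.5 CPM (9.96 to 93.6) in Irx3/5dHet and 30.5 CPM (13.2 to 60.1) in WT, with overlapping intervals. Cluster 7, led by Meg3, had the lower value in Irx3/5dHet, also with overlapping intervals, at 52.9 CPM (6.41 to 191) from 2 UMIs in Irx3/5dHet and 110.0 CPM (56.8 to 192) from 12 UMIs in WT. Values for cluster 14 are given with Nrp2. None of the 5 VEGF genes measurable in neurons was 2-fold apart between the libraries, against 15.4% of all genes there.

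Nrp2, the co-receptor tied to lymphatic growth and to semaphorin signals, was found in neurons and in glia of the ventricle. Neurons had 118 UMIs in Irx3/5dHet and 125 in WT, or 61.9 CPM (51.3 to 74.2) in Irx3/5dHet and 65.2 CPM (54.3 to 77.7) in WT. The highest neuron level was in cluster 14, led by Pcp4, Rprm and Foxb1, at 165 CPM (75.2 to 312) in Irx3/5dHet and 225 CPM (143 to 337) in WT. Nrp1 also had its highest neuron level there, at 183 CPM (87.7 to 336) in Irx3/5dHet and 127 CPM (67.7 to 217) in WT. For both genes these intervals overlapped those of cluster 7 in both libraries, and also those of clusters 3 and 8 in Irx3/5dHet. Ependymal cells had 24 UMIs in Irx3/5dHet and 21 in WT, or 155 CPM (99.2 to 230.3) in Irx3/5dHet and 76.1 CPM (47.1 to 116) in WT (fold 2.03, 1.08 to 3.84). Here 5 of the Irx3/5dHet UMIs came from 1 cell. Without the highest cell of each library the levels were 125 CPM (75.3 to 195) in Irx3/5dHet and 70.2 CPM (42.3 to 110) in WT, whose intervals overlap. In ependymal cells 7.1% of genes were at least 2-fold higher in Irx3/5dHet. Wall clusters s0 and s1 together had 89.4 CPM (38.6 to 176) in Irx3/5dHet and 124 CPM (91.8 to 164) in WT. With each library clustered alone, the wall clusters held 9.80% of WT Nrp2 UMIs in place of 20%, and ependymal cells 22.4% in place of 8.57%. Astrocytes had 1 UMI in Irx3/5dHet and 10 in WT, where this was 479.5 CPM (230.0 to 882), 8.70-fold above other WT cells, with 4 of the 10 UMIs in 1 cell. Endothelial cells had 4 UMIs in Irx3/5dHet and 1 in WT.

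Over all cells 1 of the 9 VEGF genes, Kdr, was at least 2-fold apart between the libraries, against 16.8% of 18971 measurable genes. Kdr had 12.9 CPM (9.10 to 17.8) in Irx3/5dHet and 6.07 CPM (3.97 to 8.90) in WT (fold 2.13, 1.26 to 3.66). Nrp1 had 62.9 CPM (54.04 to 72.8) in Irx3/5dHet and 36.0 CPM (30.5 to 42.1) in WT (fold 1.75, 1.40 to 2.18). Outside the endothelial class the fold was 1.34 (0.482 to 3.67) for Kdr and 1.67 (1.32 to 2.12) for Nrp1. Vegfd was lower in Irx3/5dHet over all cells (fold 0.632, 0.443 to 0.890), as was Flt1 (fold 0.738, 0.550 to 0.983), the opposite of its direction within endothelial cells. The cell makeup also differed, and its part in these sums was not tested beyond leaving out a class: neurons were 47.6% of Irx3/5dHet and 33.9% of WT cells, pars tuberalis cells 3.10% and 3.99% of Irx3/5dHet and WT, and endothelial cells 0.876% and 1.70% of Irx3/5dHet and WT. With neurons left out, a setting chosen after the data were seen, the fold was 1.03 for Vegfd, 1.23 for Flt1, 3.46 for Kdr and 2.36 for Nrp1. Vegfa (fold 0.912, 0.718 to 1.15), Vegfb (0.898, 0.727 to 1.11), Vegfc (0.691, 0.215 to 1.95), Pgf (0.808, 0.592 to 1.09) and Nrp2 (1.06, 0.865 to 1.29) had intervals that included 1.

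**Figure D4:**
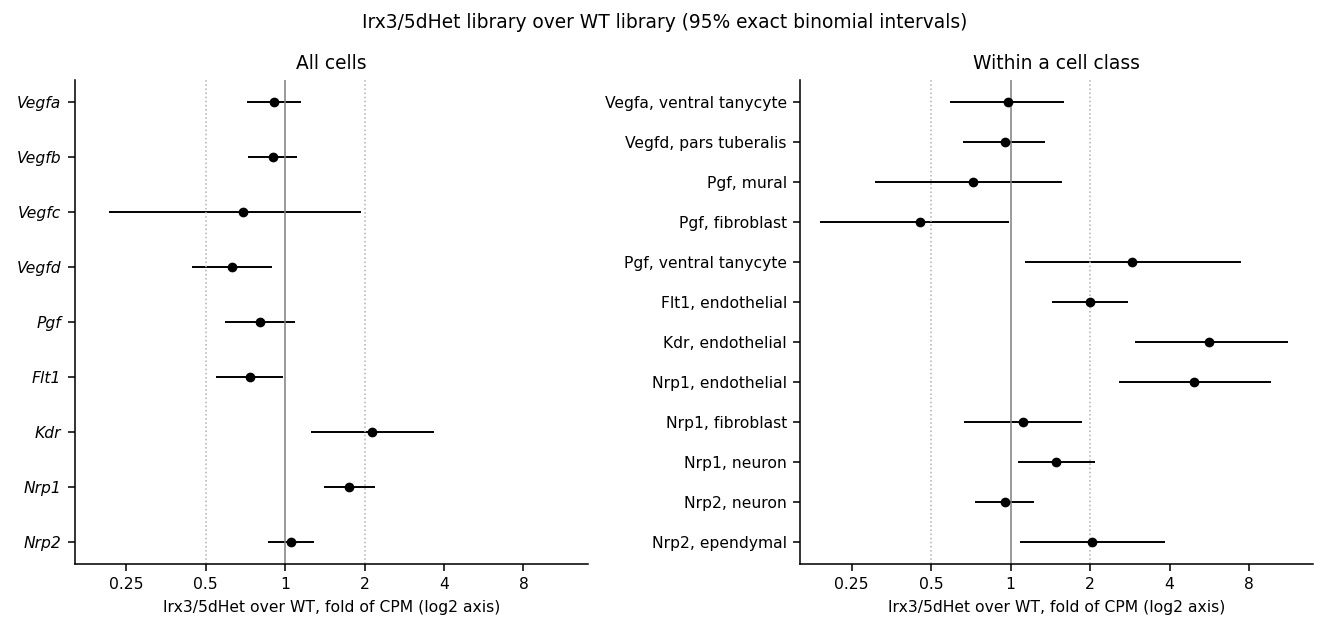
Fold of CPM in the Irx3/5dHet library over the WT library (horizontal axis, log2 spacing) for the 9 VEGF genes over all cells (left panel) and for chosen genes within a class (right panel); points are folds, lines exact binomial intervals, and dotted lines mark 0.5 and 2. Vegfa in ventral tanycytes and Vegfd in pars tuberalis cells lie close to 1, and Flt1, Kdr and Nrp1 in endothelial cells lie at 2.01, 5.66 and 4.95.

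Listed genes of the hypoxia response, which induces Vegfa, were looked at in its leading class. In ventral tanycytes 2 of 9 measurable hypoxia targets were at least 2-fold above other cells in both libraries, as were 13.1% of all genes there. These were Adm, the vasodilator adrenomedullin, at 185 CPM in Irx3/5dHet and 212 CPM in WT ventral tanycytes against 3.24 and 5.89 CPM in other cells of Irx3/5dHet and WT, and Ero1l, an oxidase of protein folding. Of 3 measurable genes of the hypoxia factor and its control, Egln1, the oxygen sensor, passed (1 of 3, beside the same 13.1%), and Hif1a was at 92.4 CPM in Irx3/5dHet and 101 CPM in WT, 1.72-fold and 1.89-fold above other cells of Irx3/5dHet and WT. Of 5 other vessel growth genes, Fgf1, Thbs1 and Ctgf passed (3 of 5, beside 13.1%); Ctgf, a matricellular protein, had 312 CPM in Irx3/5dHet and 897 CPM in WT (fold 0.348, 0.223 to 0.522). Of the class 3 semaphorins, the other ligands of neuropilins, 1 of 7 was measurable in endothelial cells, Sema3c, at 349 CPM in Irx3/5dHet and 269 CPM in WT, and 0 of 7 in ventral tanycytes or pars tuberalis cells.

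The genes whose levels followed each member most closely over the 28 class and library sums are given as a description, since the points share libraries and depth. For Flt1 they were Cldn5, Ly6c1 and Egfl7 (Pearson r 0.88, 0.85 and 0.83), all endothelial markers, and for Kdr Cldn5, Ly6c1 and Palmd (0.90, 0.87 and 0.83). Vegfd was followed by Insm1, Apoc3 and Pitx1 (0.91, 0.85 and 0.81), the last a pituitary transcription factor. Pgf was followed by Snhg18, Myl9, a smooth muscle myosin light chain, and S1pr3 (0.85, 0.82 and 0.81), and Nrp1 by Tmem204, Fxyd5 and Col4a1 (0.82, 0.81 and 0.79). Less close were Plod2, Hspa13 and Rasa2 for Vegfa (0.76, 0.74 and 0.72). Vegfb went with Idh3a, a mitochondrial enzyme, Pds5b and Actr8 (0.89, 0.87 and 0.85), and Nrp2 with Lxn, Cep83 and Tmem18 (0.83, 0.76 and 0.76). Vegfc had too few UMIs for this.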

How the data were processed

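Drop-seq counts of 2 pooled libraries were used. The authors' deposited tables hold whole-number UMI counts per gene and cell barcode, not normalized. Per the submitters' processing notes, bcl2fastq, Picard, STAR 2.6.0b, Seurat 3 and build mm10 were used, with annotation and strand setting not given in the sources used here. The authors also deposited natural log values of scaled counts in 1 joint table, used only as another choice of cells. Of 4600 barcodes, the 3889 with 300 genes or more and mitochondrial UMIs no higher than 20% were kept. After log transformation of counts per 10000, 2000 variable genes gave 30 principal components, and Leiden clustering (leidenalg 0.10.2, resolution 1, 20 neighbours) was run without the 9 VEGF genes. A cluster was named where at least 3 markers of a class were in 10% of its cells at over 2 times the median cluster. Tanycyte, astrocyte and ependymal clusters were clustered again together; this step and its naming rule were chosen after the data, levels of the VEGF genes included, were seen. The members and lists were chosen with earlier results of these data known. Levels are CPM of summed counts with exact Poisson intervals, ratios carry exact conditional binomial intervals and shares Clopper-Pearson ones. A gene is measurable in a class with at least 10 UMIs over both libraries. Tables over all genes add 0.5 to each sum, and likeness used log2(CPM + 10) of genes with at least 100 UMIs. All 9 members are named, with the 3 genes most like each member of at least 50 UMIs and listed genes past 2-fold. Ratio and interval functions were tested on simulated data. Scrublet (scanpy 1.11.5) marked 17 of 3889 cells (0.437%) as doublets, too few to rely on, so doublets were not removed in the main values and may remain. Alternatives changed the cell limits, scaling, clustering, averaging and thinning.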

Additional observations from a re-analysis of the deposited data

How the results depend on the processing

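Over 127 results, 1045 of 1079 alternative values stayed within the interval of the main value, or near it for counts of genes. Another 33 moved further and 1 reversed, a label given only where the main ratio was at least 2-fold. Smaller ratios could change direction under the other labels. Without neurons, the fold over all cells went from 0.898 to 1.02 for Vegfb, which stayed within its interval, and from 0.632 to 1.03 for Vegfd, which moved. The number of VEGF genes at least 2-fold apart over all cells was 1 (Kdr). It was 0 with at least 500 genes per cell, 0 without the endothelial cell of most Kdr UMIs in each library, 2 (Vegfc and Kdr) with the mean over cells and 3 (Vegfc, Kdr and Nrp1) without neurons. Kdr itself was at 1.88-fold and 1.85-fold in the settings with 0, and at most 3.46-fold in the others. With the mean over cells Vegfc was at 0.416-fold, and without neurons Vegfc was at 0.225-fold and Nrp1 at 2.36-fold. In endothelial cells the fold of Irx3/5dHet over WT ran over 11 alternatives from 1.81 to 2.13 for Flt1, from 5.23 to 7.02 for Kdr and from 3.63 to 5.42 for Nrp1. Changes of mitochondrial limit, doublet calls and Leiden resolution gave exactly the main folds. So did keeping the members for clustering and using the merged table's cells. These alternatives are therefore no check on the endothelial folds. With the mean over cells, the log2 ratio of endothelial cells over the rest for Flt1 was 9.48 in Irx3/5dHet (10.45 in the main values) and 7.18 in WT (7.90), and for Kdr 8.46 in Irx3/5dHet (9.59). The reversed value was Flt1 in the WT wall clusters over other cells, at a log2 ratio of -0.25 with each library clustered alone. In the same setting the share of WT Nrp2 UMIs in wall clusters was 9.80% in place of 20% and that in ependymal cells 22.4% in place of 8.57%. There no wall cluster was found in Irx3/5dHet and no astrocyte class in WT, so these gave no value. The cause of the other changes was not tested. The cells of the authors' merged table, the run without neurons and the run without that endothelial cell were chosen after the data were seen. No paired analysis was possible because each genotype is 1 pooled library. Of the values that moved, 11 were shares of cells after thinning to 1000 in place of 500 UMIs, and Vegfa over all cells was 1.22-fold without neurons. Depth limits Vegfc in every class, and all 9 genes in the 2 classes of 13 Irx3/5dHet cells, endothelial cells and astrocytes.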
